A study of Homo sapiens with 6 samples.

Results

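The BCL2 family was described through 10 genes, each read by 1 probe set, out of 18419 genes and 33252 probe sets measured. The members were the genes BCL2, BCL2L1, MCL1, BAX, BAK1, BBC3, PMAIP1, BID, BCL2L11 and BAD, found by their symbols in the annotation of the array, and all 10 had a probe set of their own. The cells were A2780, an established human line from an ovarian tumour, and 6 arrays were made from them after lentivirus had delivered short hairpin RNAs (shRNAs) against a chosen transcript. The groups were BMI1 knockdown (BMI1 shRNA1 and BMI1 shRNA2, 1 array each), its own control (BMI1 Ctrl, 1 array), FAL-1 knockdown (FAL-1 shRNA1 and FAL-1 shRNA2, 1 array each) and its own control (FAL-1 Ctrl, 1 array). BMI1 is a Polycomb protein, and FAL-1 is transcribed from FALEC as a long RNA with no known protein product. Controls received a control shRNA whose sequence the labels do not give, and RNA was taken 96 hours after infection in all groups. Every group shared 10% serum and a change of medium at 24 hours, which took the virus off. The labels describe no selection of infected cells, and the replicates are different hairpins rather than repeat cultures.

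The family decides whether the outer mitochondrial membrane stays closed. The survival proteins (BCL2, BCL-XL from BCL2L1, and MCL1) hold back the effectors BAX and BAK1, which can form pores that release cytochrome c and start the caspase cascade. The BH3-only proteins sense damage or starvation and either occupy the survival proteins or engage the effectors. BCL2L11 is a known target of forkhead (FOXO) factors. Much of the control over MCL1, BAD and BID acts on the proteins, by turnover, phosphorylation and cleavage, which an RNA array does not read. Each probe set summarises its gene, so splice forms of opposite function, as known for BCL2L1 and MCL1, cannot be told apart.

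The start regions of 3 members are shown, because BAX and BBC3 were the members whose hairpin arrays all stood above both controls, and BCL2L11 had the widest range over the arrays. They are RefSeq sequences of GRCh38.p14, from 250 bases before the annotated start to 50 bases after it, written 5′ to 3′ on the strand of the gene. BAX lies at chr19:48954625-48954924 on the plus strand, BBC3 at chr19:47232618-47232917 on the minus strand and BCL2L11 at chr2:111120664-111120963 on the plus strand. Capitals mark the E-box CACGTG, a site of the MYC, MAX and USF class of factors, in the first 2 sequences and the forkhead motif GTAAACA in the third.
BAX: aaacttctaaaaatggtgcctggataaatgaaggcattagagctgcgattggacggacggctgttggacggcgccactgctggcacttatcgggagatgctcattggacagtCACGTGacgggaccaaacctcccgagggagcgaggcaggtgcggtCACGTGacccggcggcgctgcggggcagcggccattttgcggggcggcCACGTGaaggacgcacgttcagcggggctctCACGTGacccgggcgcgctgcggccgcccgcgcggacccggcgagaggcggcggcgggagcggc
BBC3: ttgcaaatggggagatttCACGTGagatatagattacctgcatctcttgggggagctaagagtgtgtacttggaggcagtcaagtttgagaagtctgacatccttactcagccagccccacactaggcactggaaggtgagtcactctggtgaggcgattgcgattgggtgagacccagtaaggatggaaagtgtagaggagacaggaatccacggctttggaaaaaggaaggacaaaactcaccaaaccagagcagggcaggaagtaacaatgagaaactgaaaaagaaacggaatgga
BCL2L11: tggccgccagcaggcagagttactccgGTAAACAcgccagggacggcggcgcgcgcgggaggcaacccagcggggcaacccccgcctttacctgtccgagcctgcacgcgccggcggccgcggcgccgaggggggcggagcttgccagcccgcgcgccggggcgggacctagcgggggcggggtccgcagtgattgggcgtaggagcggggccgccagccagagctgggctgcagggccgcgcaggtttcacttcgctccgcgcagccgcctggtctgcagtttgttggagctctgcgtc

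The BAX region held 4 copies of CACGTG, and the BBC3 region held 1. Of 35116 such regions, 7.26% held at least 1 copy and 5 held 4 or more. CACGTG reads the same on both strands. The forkhead motif GTAAACA, searched on both strands, occurred once in the BCL2L11 region and in 3.42% of all regions. The STAT motif TTCNNNGAA and the cyclic AMP response element TGACGTCA were in none of the 9 members' regions, and they were in 7.66% and 1.85% of all regions. The GC box GGGCGG was in 6 of the 9, with 4 copies each in PMAIP1 and BID, and in 45.0% of all regions. MCL1 had no entry, and for the 3 members with several annotated starts the first listed was read. A match describes letters in the window and is not a measured site.

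Values are log2 probe set summaries, and the median of all probe sets lay between 6.94 and 7.09 on each array. BMI1 stood at 26.8% of its control level with BMI1 hairpin 1 and at 64.0% with BMI1 hairpin 2, on a probe set shared with the readthrough COMMD3-BMI1, and its mean log2 change of -1.27 did not pass in limma (adjusted p = 0.9998). The level of FALEC was not analysed here. FAL-1 hairpin 2 stood apart, with 2065 genes at 1.5-fold or more from its control, beside 463 for FAL-1 hairpin 1, 922 for BMI1 hairpin 1 and 1072 for BMI1 hairpin 2. The controls differed from each other by 1.5-fold or more at 469 genes. Of 8 epithelial markers, KRT8 and KRT18 lay above the array median on every array, while EPCAM, CDH1, PAX8 and MUC16 lay below it on every array, as did all 7 leukocyte and endothelial markers. The summed log2 level of the epithelial markers was 56.1 to 61.8 with hairpins and 56.0 to 56.5 in controls. The 3 fibroblast markers COL1A1, COL1A2 and DCN lay above it, with summed log2 levels of 27.3 to 29.8 with hairpins and 27.4 to 28.2 in controls, and their part in the results was not tested.

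**Figure D1:**
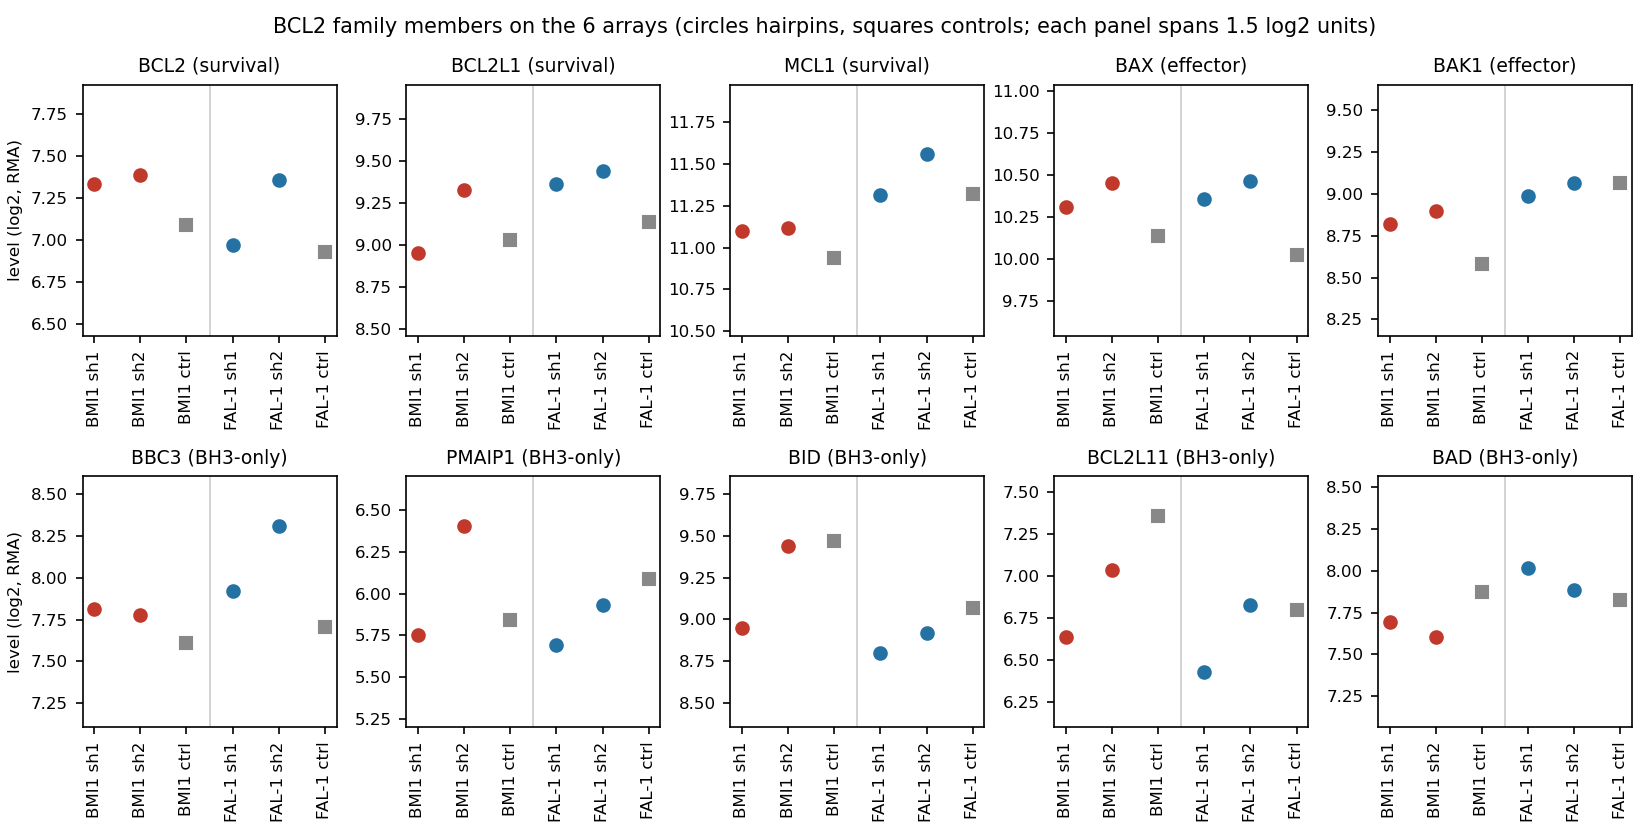
Level (log2) of each of the 10 members on the 6 arrays, with hairpins as circles left of their control as a square, and every panel spanning the same height. BAX and BBC3 have all 4 circles above both squares, and for BCL2L11, BAK1, BID and MCL1 the squares themselves are far apart.

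Among the survival genes, BCL2 and MCL1 stood above the control with both BMI1 hairpins, and BCL2 and BCL2L1 with both FAL-1 hairpins. In these bulk RNA samples, fewer cells with a transcript and less of it per cell cannot be told apart. BCL2 read 7.33 and 7.39 with the BMI1 hairpins, against 7.09 in the BMI1 control, and 6.97 and 7.36 with the FAL-1 hairpins, against 6.93 in the FAL-1 control. The BMI1 hairpins lay close together, whereas FAL-1 hairpin 1 lay near its control. The mean log2 change was 0.27 ± 0.04 with BMI1 knockdown and 0.24 ± 0.27 with FAL-1 knockdown (SD, n = 2 hairpins each). BCL2L1, which encodes BCL-XL, read 8.95 and 9.33 with the BMI1 hairpins, against 9.03 in their control, and 9.36 and 9.44 with the FAL-1 hairpins, against 9.14 in theirs. BMI1 hairpin 1 was the hairpin below its control. The mean changes of BCL2L1 were 0.11 ± 0.27 and 0.26 ± 0.05 (SD, n = 2).

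MCL1, a short-lived survival protein, read 11.10 and 11.12 with the BMI1 hairpins, against 10.94 in the BMI1 control, and 11.31 and 11.56 with the FAL-1 hairpins, against 11.32 in the FAL-1 control. Its mean change was 0.17 ± 0.01 with BMI1 knockdown and 0.11 ± 0.17 with FAL-1 knockdown (SD, n = 2 hairpins each). Both BMI1 hairpins lay above the BMI1 control and below the FAL-1 control. MCL1 is also a neighbour of FALEC on chromosome 1, with 7 RefSeq genes between them on GRCh38.p14. FAL-1 hairpin 1 left it at 99.4% of its control level and FAL-1 hairpin 2 at 118%. None of the survival genes passed limma's test in either knockdown (adjusted p = 0.9998 for BMI1 and 0.999 for FAL-1).

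The effector BAX was above the control with each of the 4 hairpins. It read 10.31 and 10.45 with the BMI1 hairpins, against 10.14 in the BMI1 control, and 10.35 and 10.46 with the FAL-1 hairpins, against 10.03 in the FAL-1 control. Every hairpin array lay above both controls, and hairpin 2 was the higher in both targets. The mean change was 0.25 ± 0.10 with BMI1 knockdown and 0.38 ± 0.08 with FAL-1 knockdown (SD, n = 2 hairpins each), which put the RNA at 113% and 125% of control for the BMI1 hairpins and at 126% and 136% for the FAL-1 hairpins. The 95% intervals of limma ran from -0.14 to 0.63 and from -0.0041 to 0.77, and neither change passed (adjusted p = 0.9998 and 0.999). BAK1, the other effector, read 8.82 and 8.90 with the BMI1 hairpins, against 8.58 in the BMI1 control, and 8.98 and 9.07 with the FAL-1 hairpins, against 9.06 in the FAL-1 control. Its mean changes were 0.28 ± 0.06 and -0.04 ± 0.06 (SD, n = 2). The BMI1 control was the lowest of the 6 arrays for BAK1, and the BMI1 hairpins lay below the FAL-1 control.

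Among the BH3-only genes, BBC3 was above its control with both hairpins of each target, and BID was below its control with both hairpins of each. For BID, BMI1 hairpin 2 still lay above the FAL-1 control. Of all genes, 32.9% lay above with both BMI1 hairpins and 37.2% with both FAL-1 hairpins, and 30.7% and 27.7% lay below. BCL2L11 was below except with FAL-1 hairpin 2, and PMAIP1 except with BMI1 hairpin 2. BBC3, which encodes PUMA, read 7.82 and 7.78 with the BMI1 hairpins, against 7.61 in the BMI1 control, and 7.92 and 8.31 with the FAL-1 hairpins, against 7.71 in the FAL-1 control. FAL-1 hairpin 2 was the highest array, at 152% of its control, while the other 3 hairpins stood at 112% to 116%. The mean change was 0.18 ± 0.03 with BMI1 knockdown and 0.41 ± 0.27 with FAL-1 knockdown (SD, n = 2 hairpins each). PMAIP1, which encodes NOXA, an antagonist of MCL1, read 5.75 and 6.40 with the BMI1 hairpins, against 5.84 in the BMI1 control, and 5.70 and 5.93 with the FAL-1 hairpins, against 6.09 in the FAL-1 control. The BMI1 hairpins lay on both sides of their control, and both FAL-1 hairpins lay below theirs. Its mean changes were 0.23 ± 0.46 and -0.27 ± 0.17 (SD, n = 2), and all its values lie below the array medians.

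BCL2L11, which encodes BIM, read 6.64 and 7.03 with the BMI1 hairpins, against 7.36 in the BMI1 control, and 6.43 and 6.83 with the FAL-1 hairpins, against 6.80 in the FAL-1 control. It had the widest range of the members, 0.93, and the BMI1 control was the highest array. On every array except the BMI1 control, BCL2L11 lay below the median of all probe sets. The mean change was -0.52 ± 0.28 with BMI1 knockdown and -0.17 ± 0.28 with FAL-1 knockdown (SD, n = 2 hairpins each). In both targets hairpin 1 was lower than hairpin 2. BID, which caspase 8 cleaves to its active form, read 8.95 and 9.44 with the BMI1 hairpins, against 9.47 in the BMI1 control, and 8.80 and 8.92 with the FAL-1 hairpins, against 9.07 in the FAL-1 control. Its mean changes were -0.27 ± 0.35 and -0.21 ± 0.09 (SD, n = 2), and BMI1 hairpin 2 stayed at 98.3% of its control.

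BAD, a BH3-only protein that survival kinases keep inactive by phosphorylation, was the member whose knockdowns lay on opposite sides of their controls. It read 7.69 and 7.61 with the BMI1 hairpins, against 7.87 in the BMI1 control, and 8.01 and 7.88 with the FAL-1 hairpins, against 7.83 in the FAL-1 control. The mean change was -0.22 ± 0.06 with BMI1 knockdown and 0.12 ± 0.09 with FAL-1 knockdown (SD, n = 2 hairpins each). Of all genes, 6.43% had both BMI1 hairpins below and both FAL-1 hairpins above their controls. The difference of -0.35 between the knockdowns missed the threshold in limma (adjusted p = 0.9999). No other member had the targets on opposite sides with every hairpin, in the direction of BAD or in the reverse one, which 4.41% of all genes showed.

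**Figure D2:**
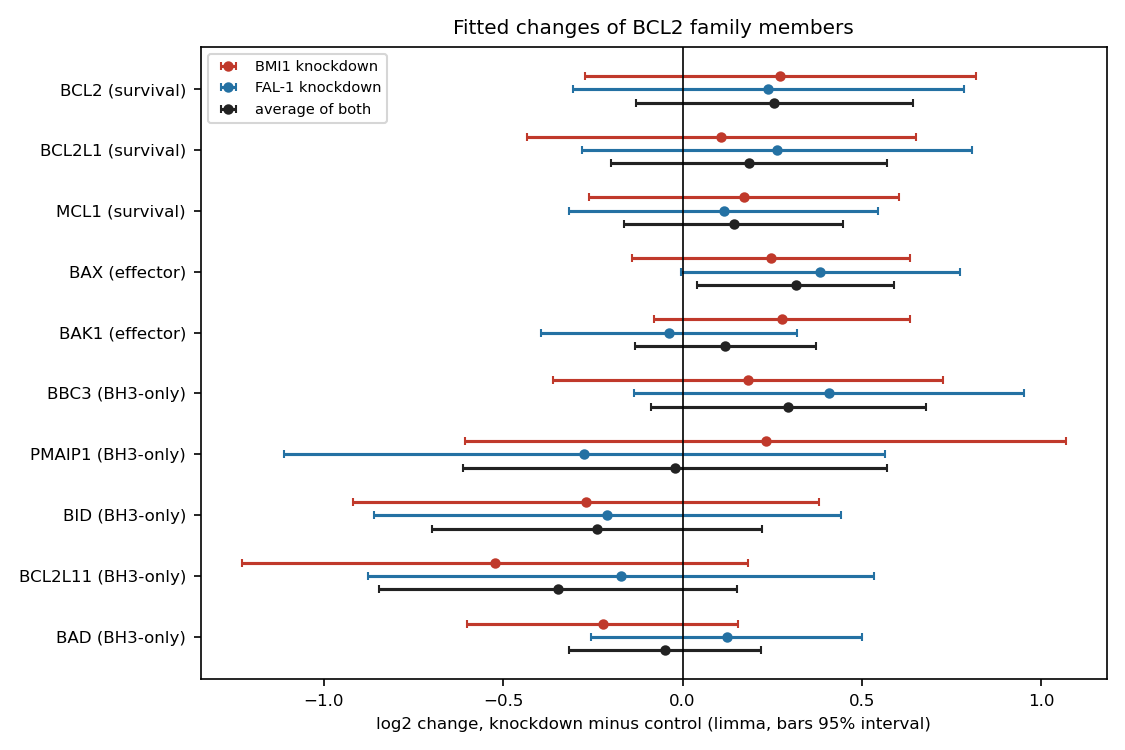
Fitted log2 change of each member (knockdown minus its own control) with limma's 95% interval as bars, for BMI1 knockdown, FAL-1 knockdown and their average. Every interval includes 0 except that of BAX in the average, which runs from 0.041 to 0.59.

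Counted over the family, BMI1 knockdown had 5 of 10 members above the control with both hairpins (BCL2, MCL1, BAX, BAK1 and BBC3), where 32.9% of all genes were. It had 3 of 10 below (BID, BCL2L11 and BAD), where 30.7% of all genes were. FAL-1 knockdown had 5 of 10 above (BCL2, BCL2L1, BAX, BBC3 and BAD), beside 37.2% of all genes, and 2 of 10 below (PMAIP1 and BID), beside 27.7%. The median change over the members was 0.18 with BMI1 knockdown and 0.12 with FAL-1 knockdown, beside 0.01 and 0.03 over all genes. By role, the median with BMI1 knockdown was 0.17 for the 3 survival genes, 0.26 for the 2 effectors and -0.22 for the 5 BH3-only genes. With FAL-1 knockdown these medians were 0.24, 0.17 and -0.17. Against the other target's control the medians in the same order were 0.00075, 0.078 and 0.036 with BMI1 knockdown. With FAL-1 knockdown they were 0.37, 0.36 and -0.030. The order of the roles with BMI1 knockdown thus depended on the control array used. Within the BH3-only genes the mean changes spanned -0.52 to 0.23 and -0.27 to 0.41, with members on both sides of 0 in each.

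The sizes were small. No member reached 1.5-fold with both hairpins in either direction, which 0.537% of all genes did above and 0.901% below with BMI1 knockdown, and 0.575% above and 0.635% below with FAL-1 knockdown. At a log2 change of 0.32 or more with both hairpins, the lower alternative fold, BMI1 knockdown had 0 members above, beside 2.35% of all genes, and 1 below (BCL2L11), beside 4.23%. FAL-1 knockdown had 1 above (BAX), beside 2.9% of all genes, and 0 below, beside 3.39%. By limma, 0 of 10 members passed for BMI1 knockdown, for FAL-1 knockdown, for their difference and for their average, as did 0% of all 18419 genes in each. At an unadjusted p under 0.05 the members numbered 0, 0, 0 and 1, and the last was BAX in the average. The shares of all genes at that level were 2.58%, 3.06%, 0.804% and 5.22%. The half-width of the 95% interval had a median of 0.54 over the members in each knockdown, so changes of the size seen here could not be told from 0 with 2 residual degrees of freedom. A p that misses the threshold does not show that a member was unchanged.

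The control arrays differed from each other at several members. The FAL-1 control stood above the BMI1 control by 0.48 for BAK1, by 0.38 for MCL1 and by 0.24 for PMAIP1. It differed by -0.56 for BCL2L11, -0.40 for BID and -0.16 for BCL2. The median absolute difference between the controls was 0.20 over the members, beside 0.11 over all genes. It exceeded the absolute mean change for 5 of 10 members in BMI1 knockdown, beside 48.8% of all genes, and for 4 of 10 in FAL-1 knockdown, beside 45.9%. Both counts are near the share of all genes. Against the other target's control, the mean change kept its sign for 5 of 10 members in BMI1 knockdown, beside 71.2% of all genes, and for 9 of 10 in FAL-1 knockdown, beside 74.5%. With BMI1 hairpins against the FAL-1 control, BAK1 read -0.20, MCL1 -0.21, BID 0.13, BCL2L11 0.04 and PMAIP1 -0.01. With FAL-1 hairpins against the BMI1 control, BAK1 read 0.44, MCL1 0.50, BID -0.61 and BCL2L11 -0.73. What set the control arrays apart was not tested.

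**Figure D3:**
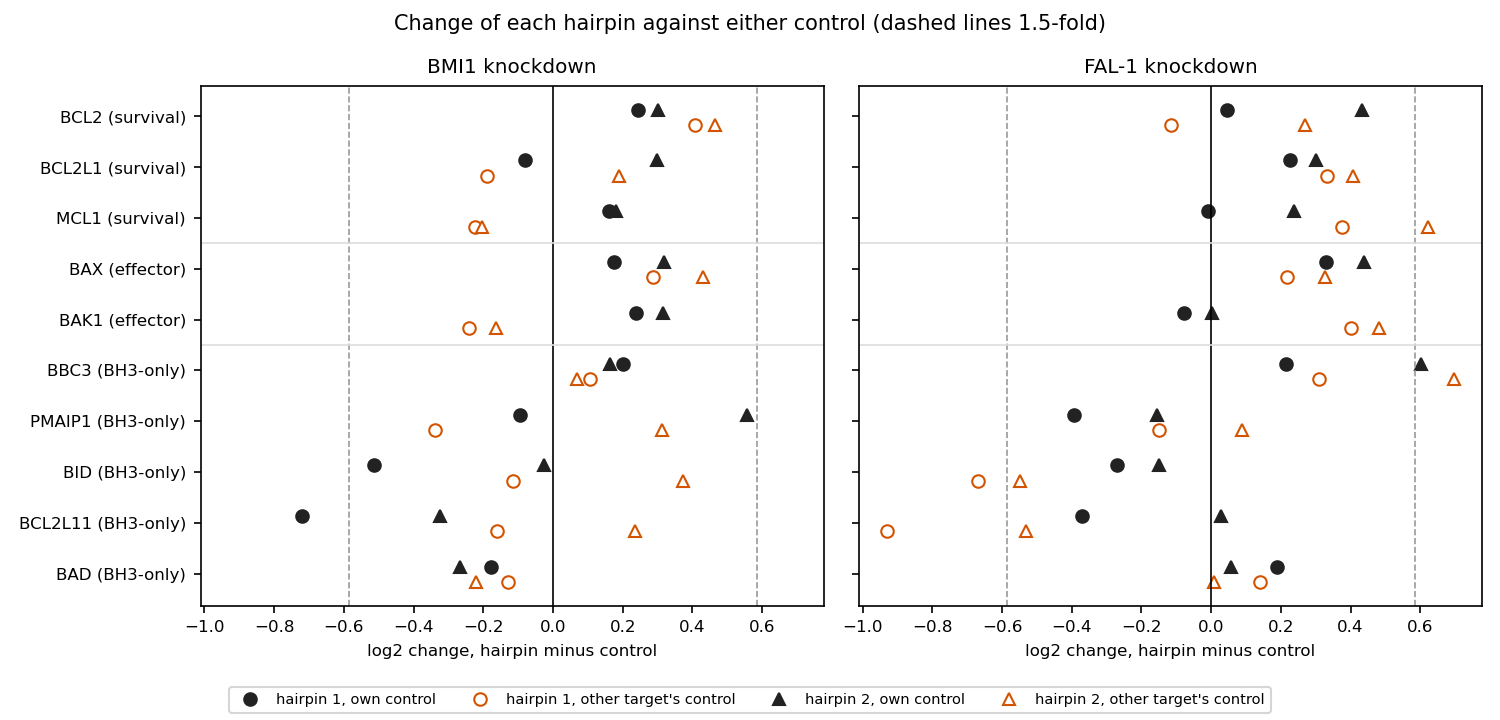
Log2 change of each hairpin (circles for hairpin 1, triangles for hairpin 2) against its own control, filled, and against the other target's control, open, with dashed lines at 1.5-fold. The open and filled marks of BAX and BBC3 stay on the right of 0 in both panels, while those of BAK1 and MCL1 change sides in the BMI1 panel.

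BAX and BBC3 were the members whose 4 hairpin arrays all lay above both controls, which makes 2 of 10 beside 9.02% of all genes. None lay below both, beside 8.04% of all genes. Without FAL-1 hairpin 2 or without BMI1 hairpin 2, the count above remained at 2, the same BAX and BBC3, beside 10.6% and 12.3% of all genes. Without BMI1 hairpin 1 it was 3, with BCL2L1 added, beside 15.6% of all genes, and without FAL-1 hairpin 1 it was 3, with BCL2 added, beside 14.9%. BAX read 0.36 against the FAL-1 control with BMI1 knockdown and 0.27 against the BMI1 control with FAL-1 knockdown, and BBC3 read 0.09 and 0.50. The average change over both targets was 0.32 for BAX and 0.30 for BBC3, with adjusted p = 0.907 for each in limma. The smallest p that an exact permutation of 4 hairpin arrays against 2 controls allows is 0.0667, and it was not used.

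The genes with profiles most like those of the 3 most variable members were ranked by the root mean square difference over the 6 arrays, after each gene was centred on its own mean. Nearest to BCL2L11 were FRRS1L, at a difference of 0.085 log2 units, and GUCY1A2, at 0.094. Nearest to PMAIP1 were LRP12, at 0.035, and DPP3, at 0.055. Nearest to BBC3 were NRP1, a co-receptor of semaphorins and VEGF, at 0.032, and PLAAT4, at 0.042. NRP1 and PLAAT4 lay below the median of all probe sets on every array. All these names are the closest among all genes tested, and no reference distance was taken. They describe likeness over 6 arrays only.

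Of 13 other relatives of the family, none passed limma's test in either knockdown. At an unadjusted p under 0.05 the count was 1 with BMI1 knockdown (BNIP3), beside 2.58% of all genes. It was 0 with FAL-1 knockdown, beside 3.06%. The median change was -0.03 and -0.01. BNIP3, a hypoxia-induced mitochondrial protein that acts in mitophagy, read 11.21 and 11.10 with the BMI1 hairpins, against 11.65 in the BMI1 control, and 11.49 and 11.25 with the FAL-1 hairpins, against 11.64 in the FAL-1 control. All 4 hairpins lay below both controls, as for 2 of the 13 relatives, beside 8.04% of all genes. BCL2L2, the gene of the survival protein BCL-W, was read by a probe set shared with a readthrough transcript. It gave 7.79 and 7.90 with the BMI1 hairpins, against 8.10, and 8.20 and 7.72 with the FAL-1 hairpins, against 8.45. Its mean changes were -0.25 ± 0.08 and -0.48 ± 0.34 (SD, n = 2), the other direction from BCL2, although FAL-1 hairpin 1 lay above the BMI1 control. HRK, a BH3-only gene, read 0.19 and 0.35 with the BMI1 hairpins and -0.23 and 0.23 with the FAL-1 hairpins. BCL2A1, a survival gene, read -0.15 and -0.30, and 0.05 and 0.06. BNIP3L, a relative of BNIP3, read -0.08 and -0.38 with the FAL-1 hairpins, and BCL2L15 read -0.11 and -0.08. BCL2A1 and BCL2L15 lay below the median of all probe sets on every array.

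Downstream of the pore, 15 of 18 listed genes of the mitochondrial pathway were measured. None passed limma's test, and the count at an unadjusted p under 0.05 was 1 in each knockdown, BIRC2 for BMI1 and CASP9 for FAL-1. The shares of all genes at that level were 2.58% and 3.06%. CASP9, the initiator caspase of the apoptosome, read 8.63 and 8.26 with the BMI1 hairpins, against 8.21 in the BMI1 control, and 9.43 and 9.85 with the FAL-1 hairpins, against 8.77 in the FAL-1 control. Both FAL-1 hairpins lay above every other array, at 158% and 211% of their control. The FAL-1 mean change of 0.87 ± 0.30 (SD, n = 2) had adjusted p = 0.999 in limma. CASP9 was the pathway gene past 1.5-fold with both FAL-1 hairpins, which 0.575% of all genes were above their control. For CASP9 the FAL-1 control stood above the BMI1 control by 0.56. APAF1, the scaffold of the apoptosome, read 0.21 and 0.26 with the FAL-1 hairpins, but 0.01 and -0.37 with the BMI1 hairpins. CASP6, an executioner caspase, read 0.18 and 0.31 with the BMI1 hairpins and -0.13 and -0.09 with the FAL-1 hairpins.

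The caspase inhibitors differed among themselves. BIRC2, which encodes cIAP1, read 9.63 and 9.75 with the BMI1 hairpins, against 9.25 in the BMI1 control, and 9.07 and 8.84 with the FAL-1 hairpins, against 9.25 in the FAL-1 control. The controls were level, and the knockdowns lay on opposite sides of them, in a direction that 4.41% of all genes showed against their own controls. BIRC5, which encodes survivin and is also a mitotic protein, read 8.53 and 8.41 with the BMI1 hairpins, against 9.07, and 8.92 and 7.82 with the FAL-1 hairpins, against 8.91. FAL-1 hairpin 1 was level with its control and FAL-1 hairpin 2 was at 46.9% of it. A dimmer probe set of BIRC5 differed, with changes of 0.015 and -0.039 for the BMI1 hairpins and 0.014 and -0.20 for the FAL-1 hairpins. VDAC3, a channel of the outer membrane, read -0.23 and -0.19 with the BMI1 hairpins and -0.03 and -0.07 with the FAL-1 hairpins. It was among 4 of the 15 pathway genes with all 4 hairpins below both controls, beside 8.04% of all genes. The count above both controls was 0, beside 9.02%. The median change over the 15 genes was -0.10 with BMI1 knockdown and -0.05 with FAL-1 knockdown.

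Of 19 listed regulators of the members, 17 were measured. None passed limma's test. At an unadjusted p under 0.05 stood 1 with BMI1 knockdown (DDIT3), beside 2.58% of all genes. With FAL-1 knockdown there were 3 (STAT3 and FBXW7, higher, and DDIT3, lower), beside 3.06%. STAT3, a transcription factor that can induce BCL2L1 and MCL1, read 10.75 and 10.90 with the BMI1 hairpins, against 10.19 in the BMI1 control, and 10.77 and 11.38 with the FAL-1 hairpins, against 10.07 in the FAL-1 control. FBXW7, part of a ubiquitin ligase that marks MCL1 protein for destruction, read 8.94 and 8.74 with the BMI1 hairpins, against 8.17, and 9.02 and 9.61 with the FAL-1 hairpins, against 8.29. For both genes all 4 hairpins lay above both controls. Their mean changes were 0.64 ± 0.11 and 1.01 ± 0.43 for STAT3, and 0.67 ± 0.14 and 1.02 ± 0.42 for FBXW7 (SD, n = 2 hairpins each).

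CASP8, which encodes the protease that cleaves BID, had changes of 0.44 and 0.41 with the BMI1 hairpins and of 0.13 and 0.40 with the FAL-1 hairpins. Again all 4 hairpin arrays lay above both controls. Such genes were 3 of the 17 regulators, beside 9.02% of all genes, and 1 regulator lay below both, beside 8.04%. DDIT3, a stress factor that can raise BCL2L11 and BBC3, showed the widest gap between controls among the listed genes. It read 8.29 and 8.39 with the BMI1 hairpins, against 7.34 in the BMI1 control, and 9.12 and 9.16 with the FAL-1 hairpins, against 10.07 in the FAL-1 control. All hairpins of both targets thus lay between the controls, above one and below the other. ATF4, its upstream factor in the stress response, read -0.36 and -0.78 with the FAL-1 hairpins, and a second probe set read -0.21 and -0.12. The median change over the 17 regulators was 0.08 with BMI1 knockdown and 0.10 with FAL-1 knockdown.

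**Figure D4:**
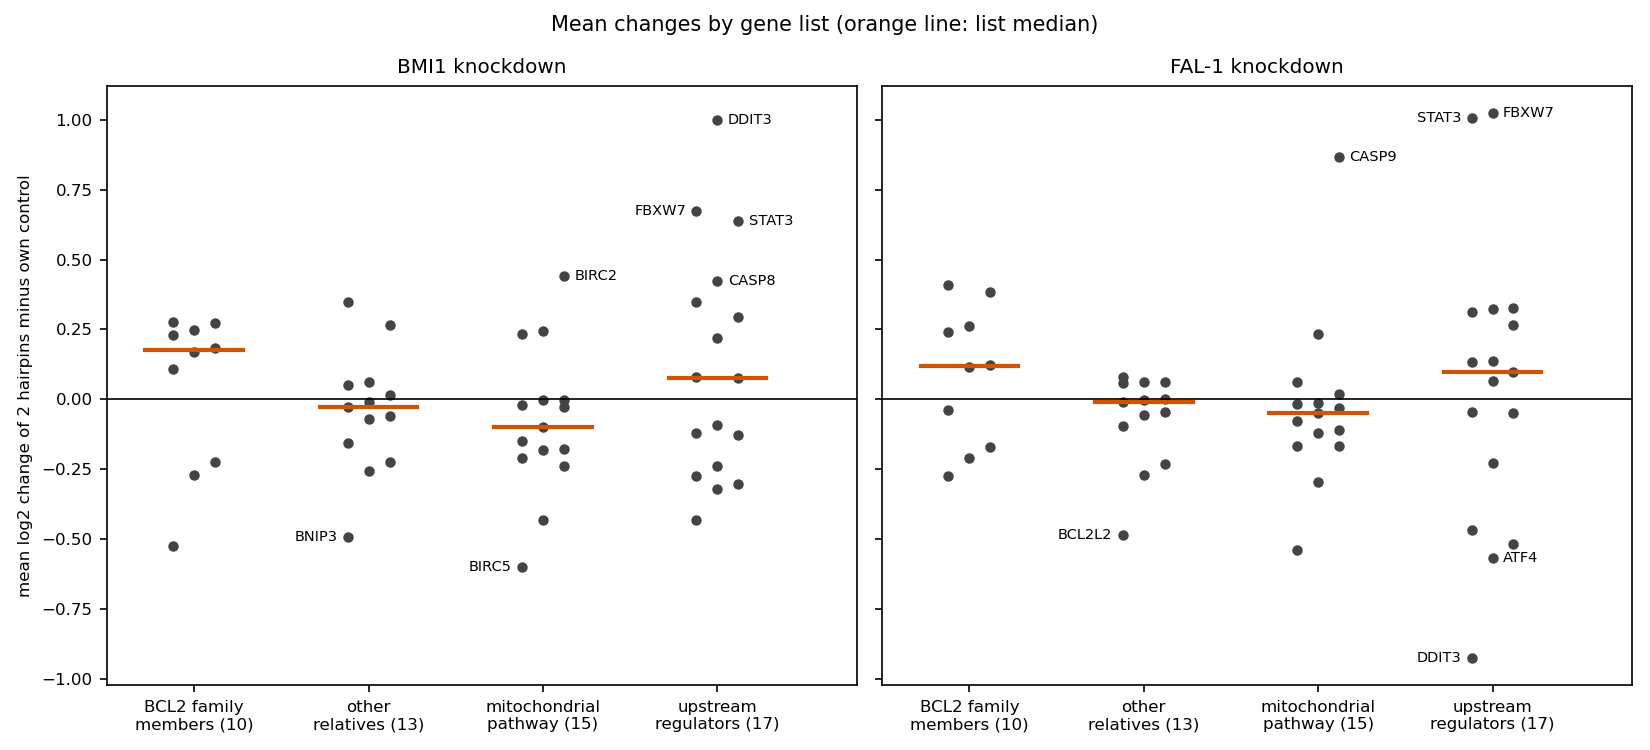
Mean log2 change of the hairpins of a target minus its own control, 1 point per gene, for the 10 members, 13 other relatives, 15 pathway genes and 17 regulators, with the list median in orange. The members lie between -0.52 and 0.41, while DDIT3, FBXW7, STAT3 and CASP9 reach 0.87 to 1.02 in absolute size in at least 1 knockdown.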

How the data were processed

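Total RNA of 6 A2780 samples was hybridised to 1-colour Affymetrix arrays. The authors deposited log2 values per probe set, made with RMA per the submitters' processing notes; the scale was judged from the range. The sources used here do not name the RMA software or say whether all arrays were normalized jointly. Of 33252 probe sets, 19460 carried 1 symbol, 1754 several, and 12038 were not listed. Where several probe sets read a gene, the brightest on average was kept, and probe sets shared with a readthrough were kept for BMI1 and BCL2L2. Sequences and gene order came from RefSeq (GRCh38.p14).

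All arrays entered a single limma 3.58.1 model (R 4.3.3) of 4 group means with eBayes, two-sided, with Benjamini-Hochberg adjustment over 18419 genes at 0.05. The model tested BMI1 knockdown and FAL-1 knockdown, each over its matching control array, then the difference and the average of these changes. Changes are hairpin minus control. An exact permutation of 2 arrays against 1 cannot go under 0.333. In this model the p-values and intervals rest on the spread between the 2 hairpins of a target. That spread is pooled over both targets and moderated over all genes, so a gene has the same standard error in both knockdowns. Each control is 1 array, so the p-values and intervals hold no spread between controls. Separate cultures are not described. The fit was tested on simulated data. Members and lists were chosen with earlier results of these data known. Named genes were all members and, per list and target, up to 4 genes with the largest smaller hairpin change in 1 direction. Some listed genes and a motif searched are not reported here. Alternatives covered the control, dim genes, normalization, probe set summary, variance model, hairpin number as a block, left-out arrays and the fold counted.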

Additional observations from a re-analysis of the deposited data

Results flagged for a closer look

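Among the members and the genes named by rule, the knockdowns lay on opposite sides of their controls with every hairpin for BAD, where the BMI1 change minus the FAL-1 change was -0.35 (95% interval -0.88 to 0.19), for BCL2A1 at -0.28, for CASP6 at 0.35, for BIRC2 at 0.74 (0.12 to 1.35) and for DDIT3 at 1.92 (1.42 to 2.42). Of the other measured genes on the 3 lists, FOXO3 at -0.41 and HUWE1 at -0.23 showed the same pattern and were named after their values were seen; FAL-1 hairpin 1 lay only 0.0012 above its control for FOXO3. None of these differences passed limma's test over all genes (adjusted p = 0.9999 for each). Of all genes, 6.43% had the direction of BAD, BCL2A1, FOXO3 and HUWE1 with every hairpin, and 4.41% had that of CASP6, BIRC2 and DDIT3. The named genes came from 10 members, 13 other relatives, 15 pathway genes and 17 regulators measured. Whether they exceed the shares of all genes was not tested. For DDIT3 the FAL-1 control stood above the BMI1 control by 2.73 and for BIRC2 by 0.0046. The intervals hold no spread between control arrays, and the part of those arrays in the differences between knockdowns was not tested.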

How the results depend on the processing

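No member and no gene passed an adjusted p of 0.05 in any contrast fitted under any alternative run. The difference and the average were not fitted with the other target's control or with pooled controls. The count of 0 calls held throughout, and the number of arrays limits what could be seen. BAX, BBC3, BCL2 and BAD kept their direction in both knockdowns under all alternatives. Against the other target's control the BMI1 median over the members was 0.019, and the BMI1 changes that turned were BAK1 at -0.20, BCL2L11 at 0.036, BID at 0.13, MCL1 at -0.21 and PMAIP1 at -0.012, while the FAL-1 change of BAK1 turned to 0.44. With pooled controls MCL1 turned to -0.021 for BMI1 and BAK1 to 0.20 for FAL-1, and after quantile normalization BAK1 read 0.0077 for FAL-1. Leaving out single hairpins gave a BMI1 range of -0.081 to 0.30 for BCL2L1 and -0.094 to 0.56 for PMAIP1. It gave a FAL-1 range of -0.079 to 0.0034 for BAK1, -0.37 to 0.028 for BCL2L11 and -0.0086 to 0.24 for MCL1. The BMI1 median was 0.24 without BMI1 hairpin 1, 0.04 without BMI1 hairpin 2 and 0.046 with pooled controls, against 0.18 with all arrays and its own control. The FAL-1 median was 0.019 without FAL-1 hairpin 2 and 0.15 without FAL-1 hairpin 1, against 0.12 with all arrays and its own control. It was 0.18 with pooled controls and 0.17 against the other target's control. The median difference ranged from -0.21 to 0.049, and the count above both controls from 2 to 3. The count below them ranged from 0 to 1, with BID below without BMI1 hairpin 2, beside 10.7% of all genes. At the lower alternative fold (a log2 change of 0.32), 1 member (BCL2L11) was below with both hairpins in BMI1 knockdown and 1 (BAX) above in FAL-1 knockdown. With the hairpin number as a replicate block the medians stayed at 0.18 and 0.12 and no call appeared. Same-numbered hairpins of the 2 targets deviated together at r = 0.275 across genes. The labels do not say what they share beyond the number, and the cause was not tested. PMAIP1, BCL2L11 and BCL2 were not tested where dim genes were left out. The cause of the turned directions was not tested.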
